A study of Macaca mulatta with 6 samples.

Results

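The miR-191 and miR-425 cluster holds a pair of miRNA genes, and its members were taken by name: every entry of the deposited table whose stem, without species prefix, arm and isomiR suffix, is miR-191 or miR-425. There were 4 such entries among the 2046 of the table, 2 of miR-191 and 2 of miR-425, and each of the 4 passed the filter on low values. The table comes from plasma of 3 adult male rhesus monkeys (Macaca mulatta), 1 library per monkey and time. The 3 libraries after ischemia were made from saphenous vein blood drawn 3 h after stroke onset. For the stroke, a clot was placed through a catheter into the M1 segment of the right middle cerebral artery (MCAO). The 3 libraries before ischemia were made from baseline blood of the same animals, with no sham-operated monkey among the groups. Only monkeys whose artery was still blocked at angiography were included, and all were anesthetized with ketamine and propofol, so that the time under anesthesia and ischemia cannot be told apart. Small RNA of 18 to 26 nt was sequenced, and the values are the authors' normalized read counts, that is, reads multiplied by 1 factor per library. Divided by that factor, the values of a library summed to between 6036831 and 9737589 reads after ischemia, against 10745499 to 15548693 before. These sums cover only the entries of the deposited table, some of which hold identical values, so they are approximate.

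A miRNA gene is transcribed as a hairpin, from which the enzymes Drosha and Dicer cut a duplex of a 5p and a 3p strand. One strand is usually kept by an Argonaute protein, where its seed (bases 2 to 8) pairs with target mRNAs, and the other is degraded. In humans MIR191 and MIR425 lie close together in an intron of DALRD3 and are transcribed together. In the rhesus assembly T2T-MMU8v2.0, both genes lie within DALRD3 with 0 annotated genes between them. miR-191-5p is abundant in blood cells and platelets and is among the miRNAs most often used as a reference for measurements in plasma and serum. miR-425-5p is known in humans to repress NPPA, the gene of atrial natriuretic peptide. Both are also known from estrogen-responsive breast cancer cells.

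The sequences of the 4 entries are shown because they tell the arms and the 5′ ends apart. They are written 5′ to 3′ with T for U, as in the table, with the seed in capitals.
mml-miR-191-5p: cAACGGAAtcccaaaagcagctg
mml-miR-191-3p_L-1: cTGCGCTTggatttcgtcccc
mml-miR-425: aATGACACgatcactcccgttga
hsa-miR-425-3p_L+1R-1: cATCGGGAatgtcgtgtccgcc
mml-miR-425 is listed without an arm and is the 5p strand, so it is called miR-425-5p here. The suffixes L and R count bases added to or missing from the left and right end of the annotated miRNA. The 5p entries of 23 nt keep the annotated 5′ end. Both 3p entries have a shifted one, so that their seeds differ from those of the annotated strands: the entry of miR-191-3p lacks the first base and reads TGCGCTT in place of CTGCGCT, and the entry of miR-425-3p has an extra base and reads ATCGGGA in place of TCGGGAA. The 4 seeds differ from each other, and 0 other entries of the table share any of them, with the annotated or the shifted 5′ end. In a prediction with RNAduplex, the listed strands of miR-191 formed 15 base pairs with each other and those of miR-425 formed 16.

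Whether the members changed after ischemia was read from a limma fit on log2(normalized count + 1), over the 807 entries with 10 or more normalized counts in 3 or more libraries. A change was called at a Benjamini-Hochberg adjusted p under 0.05 over all 807 entries, which 44 entries (5.45%) met, 16 higher and 28 lower. Of the 4 members, 0 met it in limma, and 1, miR-191-5p, had an unadjusted p under 0.05, which 79 entries (9.79%) had among those that were higher. No other test across all entries was run. Every fold change is given on that scale, which understates changes of low entries, as after over before ischemia. The p-values of limma measure the spread between 3 libraries per group, moderated across entries. Both groups hold the same 3 animals, which in limma only a block for replicate number takes into account. The permutation tests given below are also unpaired.

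miR-191-5p was the second most abundant entry by mean level and had the highest fold change of the members. It had 736356, 1178173 and 983667 normalized counts after ischemia in monkeys 1, 2 and 3, against 457901, 611249 and 397980 before. Every library after ischemia lay above every library before, as it did for 93 of the 807 entries (11.5%). The means were 966065 ± 221434 after and 489043 ± 109992 before ischemia (SD, n = 3 each), a ratio of 1.98. Within the animals the ratio was 1.61 in monkey 1, 1.93 in monkey 2 and 2.47 in monkey 3. The log2 fold change was 0.98 (standard error 0.30, 95% interval 0.31 to 1.65), with an unadjusted p of 0.00968 and an adjusted p of 0.106 from limma. With replicate number as a block it was 0.0652, and over all 19 alternatives the adjusted p ranged from 0.0652 to 0.445. By fold change it ranked 141 of the 807 tested entries, counted from the highest.

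miR-425-5p had 27611, 21794 and 33781 normalized counts after ischemia, against 20001, 25130 and 18626 before. The groups overlapped, since the library of monkey 2 after ischemia lay below its own baseline while those of monkeys 1 and 3 lay above theirs. The means were 27729 ± 5995 after and 21252 ± 3428 before ischemia (SD, n = 3 each). The log2 fold change was 0.37 (standard error 0.29, 95% interval −0.28 to 1.03, adjusted p = 0.475 from limma), and −0.017 when libraries were scaled by their totals. It was 0.22 without the library of monkey 3 after ischemia, 0.13 without both libraries of monkey 3 and 0.66 without both of monkey 2.

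Of the 3p strands, that of miR-425 was by far the more abundant. miR-425-3p had 18861, 21179 and 14163 normalized counts after ischemia, against 11783, 14692 and 9545 before. Each monkey had more after ischemia, by ratios of 1.60, 1.44 and 1.48 in monkeys 1, 2 and 3, although the groups overlapped through the baseline of monkey 2. The log2 fold change was 0.59 (standard error 0.30, 95% interval −0.10 to 1.28, adjusted p = 0.294 from limma).

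miR-191-3p had 368, 421 and 301 normalized counts after ischemia, against 376, 313 and 334 before. Monkey 2 had more after ischemia and monkeys 1 and 3 had less, and the groups overlapped. The log2 fold change was 0.081 (standard error 0.36, 95% interval −0.74 to 0.90, adjusted p = 0.937 from limma), and −0.31 when scaled by library totals. This strand rested on 162 to 328 reads per library after ischemia and 466 to 591 before, which gives an exact Poisson interval (95%) of 138 to 189 reads for the smallest of them. These intervals cover counting error only. The other members had at least 7616 reads in each library.

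**Figure D1:**
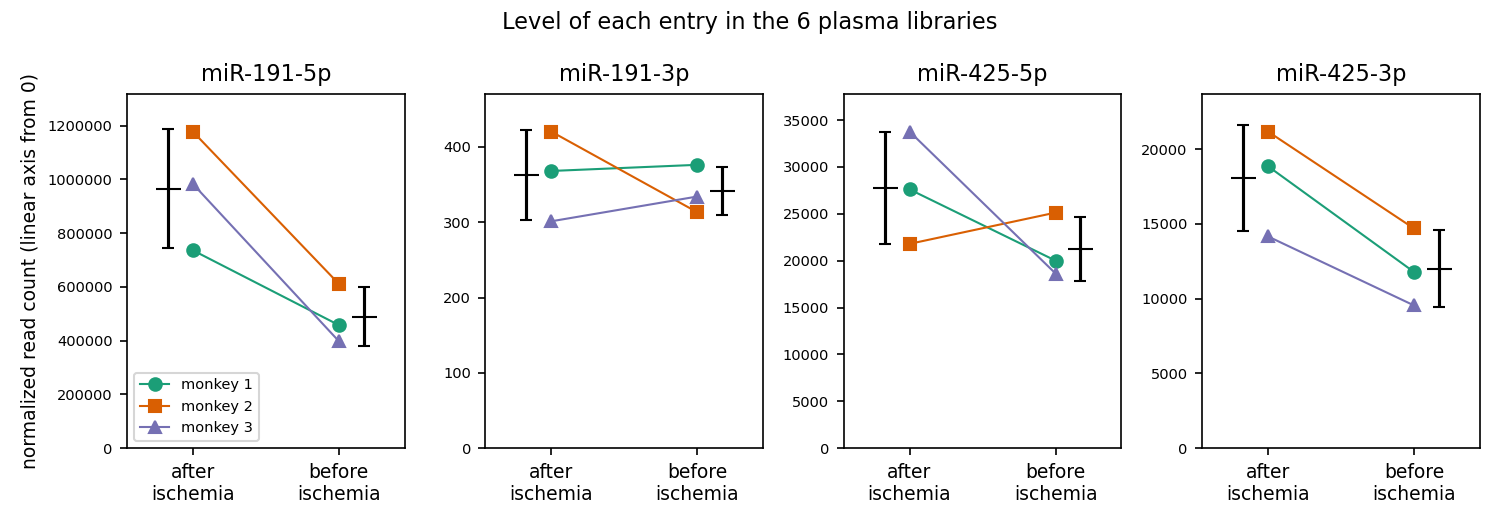
Normalized read counts (linear axis from 0) of the 4 entries after (left) and before (right) ischemia, with a line per monkey and black bars for the mean ± SD of 3 libraries. For miR-191-5p the lowest library after ischemia is at 736356 and none before ischemia exceeds 611249; the other entries overlap between groups.

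By weight in the plasma profile, miR-191 was a leading miRNA and miR-425 was not. Both arms of miR-191 together made up 5.49%, 10.5% and 8.76% of the normalized reads of a library after ischemia in monkeys 1, 2 and 3, against 5.47%, 5.95% and 4.53% before. In monkey 1 the share was thus almost equal after and before ischemia, and the groups overlapped. The means were 8.24 ± 2.53% after and 5.32 ± 0.724% before ischemia (SD, n = 3 each, exact two-sided permutation test, p = 0.2, adjusted p = 0.45 over 3 shares). With 3 libraries per group this test cannot go below 0.1. Without the library of monkey 2 after ischemia, the difference of the means of 2.92 percentage points dropped to 1.81. miR-191-5p ranked 3, 2 and 2 among all entries after ischemia and 5, 3 and 4 before.

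The share of both arms of miR-425 was 0.346%, 0.381% and 0.427% after ischemia, against 0.380%, 0.388% and 0.320% before. It was higher after ischemia in monkey 3 and lower in monkeys 1 and 2 (means 0.385 ± 0.0406% and 0.363 ± 0.0367% with SD over 3 libraries; p = 0.5 in the exact permutation test). miR-425-5p ranked 59, 62 and 47 after ischemia and 63, 54 and 67 before, and miR-425-3p 68, 65 and 79 after and 87, 76 and 95 before. The ranks of miR-191-3p were 297, 266 and 300 after ischemia, against 276, 304 and 287 before.

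**Figure D2:**
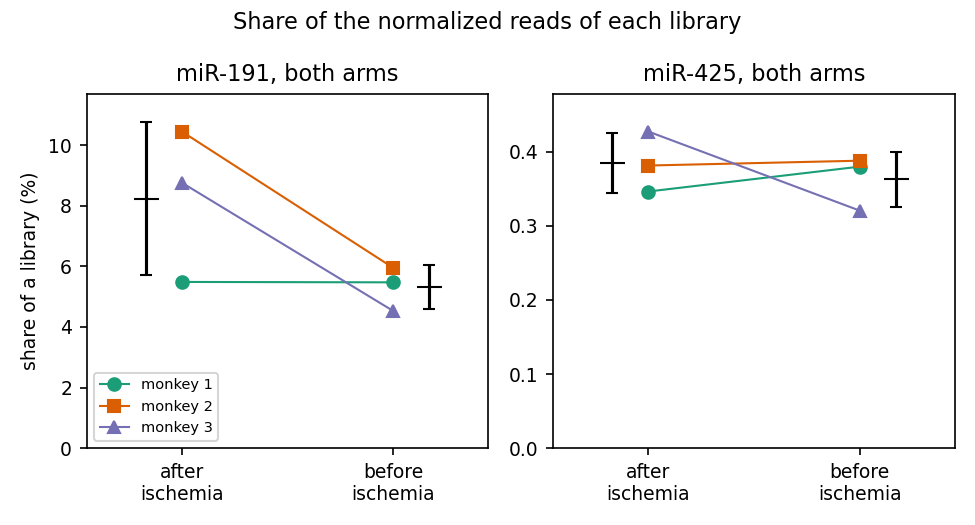
Share of the normalized reads of a library (percent, axes from 0) held by both arms of miR-191 (left panel) and of miR-425 (right panel), after and before ischemia, with a line per monkey and the mean ± SD of 3 libraries. The share of miR-191 in monkey 1 is 5.49% after and 5.47% before ischemia, and it is higher after ischemia in monkeys 2 and 3.

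The fold changes depended on how libraries were scaled. When totals were made equal, the log2 fold change was 0.59 for miR-191-5p (limma, adjusted p = 0.289), 0.20 for miR-425-3p, −0.017 for miR-425-5p and −0.31 for miR-191-3p. That scaling also lowered the median of all tested entries to −0.43, against −0.057 as deposited. Relative to the median entry as deposited, miR-191-5p stood 1.04 higher, miR-425-3p 0.65, miR-425-5p 0.43 and miR-191-3p 0.14. A factor per library moves all its entries alike, so these distances are nearly fixed under any scaling and do not bear on stability. mml-miR-486-5p, the most abundant entry and a miRNA of red blood cells, had 4084105, 1405556 and 2647856 normalized counts after ischemia, against 525271, 555368 and 1341010 before. It was highest in monkey 1 after ischemia, the library that also had the largest total. The part of mml-miR-486-5p alone in the share of miR-191 was not tested. With those of the 10 most abundant entries that are not members left out of the total, miR-191 made up 10.8%, 18.2% and 16.3% after ischemia, against 8.77%, 10.1% and 7.35% before.

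**Figure D3:**
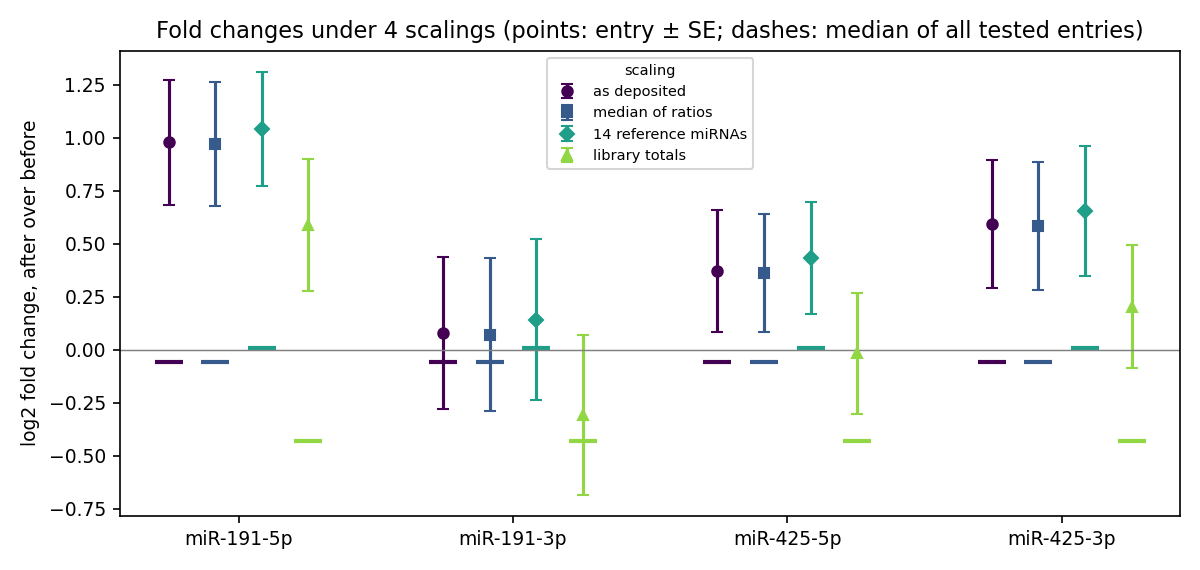
Log2 fold change (after over before ischemia, points with ± standard error) of the 4 entries under 4 scalings of the libraries, and the median of all tested entries under the same scaling (dashes). By library totals every point lies lower than as deposited, as does the median, since a factor per library moves all entries alike.

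Ratios between entries of the same library do not depend on the scaling. miR-191-5p exceeded miR-191-3p 2000 times, 2802 times and 3265 times after ischemia in monkeys 1, 2 and 3, against 1217, 1951 and 1191 times before. The groups did not overlap and the ratio was higher after ischemia in each monkey, with a mean log2 ratio of 11.36 ± 0.36 after and 10.46 ± 0.40 before (n = 3 each, SD; difference 0.90; p = 0.1 in the exact permutation test, adjusted p = 0.133 over 4 ratios). No overlap of the arm ratio was seen for 65 of 181 precursors with both arms tested (35.9%), and the change of 0.90 was equal to the median size of change over these precursors. Before ischemia miR-191 had the ninth most unequal arms of them. Where both arms of a precursor were named, an entry listed without an arm was left out of its pair. For miR-223 the 3p entry was thus oan-miR-223-3p_R-1 (mean 198) and not mml-miR-223_R+2 (mean 301133). The share and the ranks over these precursors are therefore approximate.

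The arms of miR-425 were nearly even. miR-425-5p exceeded miR-425-3p 1.46, 1.03 and 2.39 times after ischemia, against 1.70, 1.71 and 1.95 times before. The 3 baselines lay close together and the libraries after ischemia spread to both sides of them, with mean log2 ratios of 0.62 ± 0.61 after and 0.83 ± 0.11 before (n = 3 each, SD; p = 0.7 in the exact permutation test). The ratio was lower after ischemia in monkeys 1 and 2 and higher in monkey 3, and the difference of −0.22 turned to 0.068 without the library of monkey 2 after ischemia. By inequality of the arms before ischemia miR-425 ranked 161 of the 181 precursors.

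Between the 2 genes, miR-191-5p stood 26.7, 54.1 and 29.1 times above miR-425-5p after ischemia, against 22.9, 24.3 and 21.4 times before. The library of monkey 2 after ischemia stood apart from the other 5, and the groups did not overlap, as in 38.6% of the ratios of miR-191-5p to the other tested entries (mean log2 ratios 5.12 ± 0.56 and 4.51 ± 0.094 with SD over 3 libraries; difference 0.61; p = 0.1 in the exact permutation test, adjusted p = 0.133). Without that library the difference was 0.29. For the 3p strands the order was the reverse, with miR-191-3p at 0.0195, 0.0199 and 0.0213 times miR-425-3p after ischemia, against 0.0319, 0.0213 and 0.0350 times before. This log2 ratio was lower after ischemia in each monkey, by 0.71, 0.10 and 0.72, with a difference of the means of −0.51 (p = 0.1 in the exact permutation test, adjusted p = 0.133). The groups were separated only by 0.0213 in monkey 3 after and 0.0213 in monkey 2 before ischemia, equal as printed and closer than the counting error of miR-191-3p, whose interval reaches 15.7% to either side in the library of monkey 3 after ischemia. Of the ratios of miR-191-3p to all other tested entries, 9.55% were lower after ischemia without overlap.

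**Figure D4:**
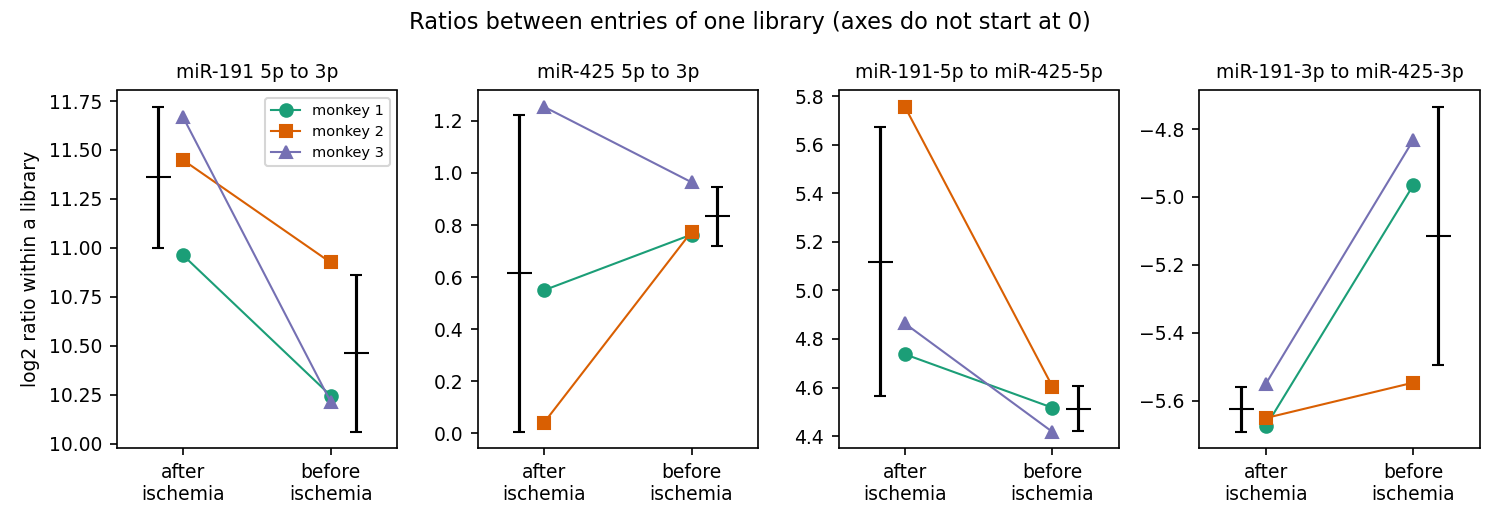
Log2 ratios within a library after and before ischemia (axes not from 0), with a line per monkey and the mean ± SD of 3 libraries: the arms of miR-191, the arms of miR-425, the 5p strands against each other and the 3p strands against each other. The arms of miR-191 differ by log2 ratios of 10.21 to 11.67, those of miR-425 by 0.041 to 1.25.

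Since miR-191-5p and miR-425-5p are themselves used as references, they were set against 14 other miRNAs in use for that purpose in blood. In limma 0 of the 17 tested entries of this list were called higher and 0 lower (1 and 1 by unadjusted p under 0.05), and their median log2 fold change was −0.096, against −0.057 over all tested entries. The log2 ratio of miR-191-5p was higher after ischemia in all 3 monkeys against 13 of the 14. It did so without overlap against 11, beside the 38.6% over all other tested entries. That share counts ratios without overlap only, so the 13 have no share beside them. Most of those other entries are less abundant than the 14. Against miR-221-3p, an abundant miRNA of the vessel wall and of blood, the log2 ratio of miR-191-5p was 2.28 ± 0.077 after and 1.20 ± 0.079 before ischemia (SD, n = 3 each), and against miR-126-3p, a miRNA of endothelium and platelets, it was 2.50 ± 0.28 after and 1.31 ± 0.28 before. Against let-7a-5p, the next most abundant of the list, the log2 ratio of miR-191-5p was 2.65 ± 0.33 after and 1.90 ± 0.36 before, and the groups overlapped. These ratios share their numerator. Among the 14, picked out after their values were seen, miR-423-5p gave the largest difference at 1.99, and miR-16-5p, which is rich in red blood cells, the lowest at −0.044. For miR-425-5p the difference lay between −0.65 (miR-16-5p) and 1.38 (miR-423-5p). It was above 0 against 12 of the 14, which also have no share beside them. The groups did not overlap against 5, with 21.5% of all other tested entries giving a ratio without overlap. Each difference is the log2 fold change of the member less that of the reference, so the counts of direction add no separate support.

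**Figure D5:**
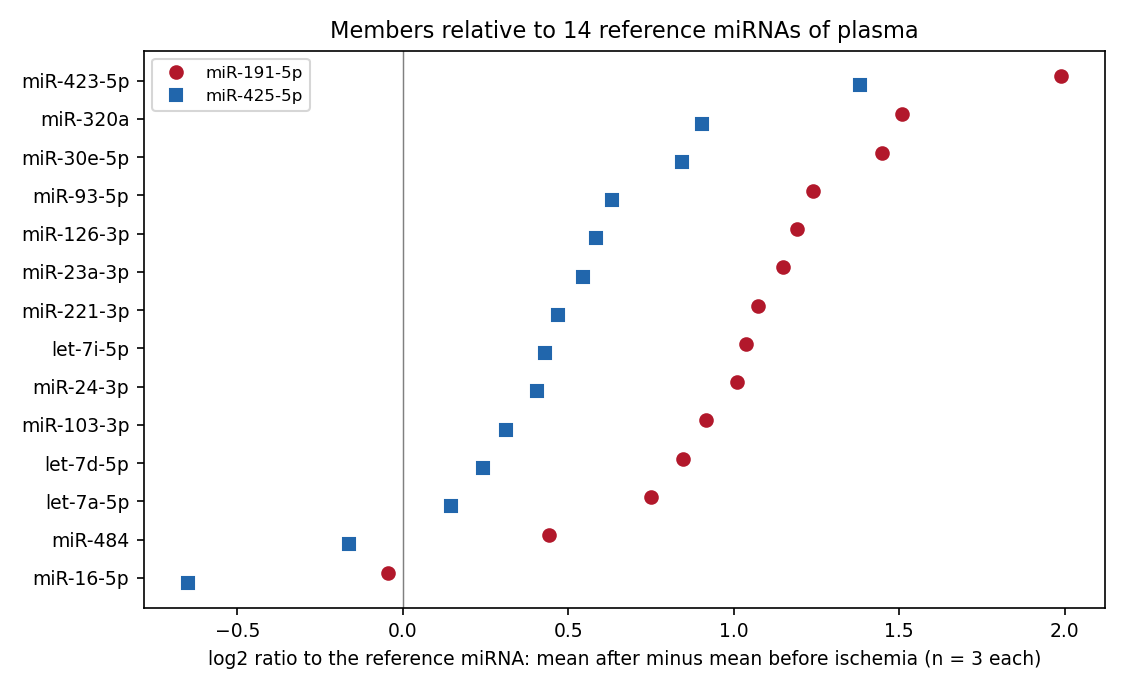
Difference of the mean log2 ratio to each of 14 reference miRNAs, after minus before ischemia, for miR-191-5p (circles) and miR-425-5p (squares). miR-191-5p lies to the right of 0 for all but miR-16-5p, and the points of both members keep a constant distance of 0.61, since they share the references.

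By pattern over the 6 libraries, the tested miRNA most like miR-191-5p was mml-miR-421, with a Pearson correlation of log2 values of 0.995. It had 2917, 3905 and 3597 normalized counts after ischemia, against 2043, 2621 and 1778 before, and thus the same order of the libraries. mml-miR-500b-3p_L+3 (0.969), mml-miR-26b-3p_R+2 (0.961), mml-miR-26b-5p_R+1 (0.956) and mml-let-7g-5p (0.956) came next. These 5 had log2 fold changes of 0.61 to 0.80 and adjusted p from 0.104 to 0.294 in limma. Closest to miR-425-5p were mml-miR-132-5p (0.889), mml-miR-454-3p (0.865), mml-miR-374b-5p_R-1 (0.864), mml-miR-30c-5p_R+1 (0.849) and mml-miR-374a-5p_R-1 (0.847). Among the members, miR-191-5p correlated with miR-425-3p at 0.84, with miR-425-5p at 0.61 and with miR-191-3p at 0.22, while miR-425-5p and miR-425-3p correlated at 0.42 and miR-191-3p and miR-425-5p at −0.49. These coefficients rest on 6 libraries that share their groups and their scaling, and are given as a description.

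Plasma carries miRNAs of blood cells, and markers of these were read beside miR-191-5p. Leukocyte markers made up 3.49% to 3.94% of a library after ischemia and 2.09% to 2.73% before. In each library most of this was mml-miR-142-5p_L+2R-2, with 411830, 245238 and 304754 normalized counts after ischemia, against 96509, 144564 and 126885 before. All leukocyte markers together had 529207, 394980 and 391980 after, against 174735, 280871 and 187973 before. Of their 9 tested entries 1 was higher (mml-miR-142-5p_L+2R-2, log2 fold change 1.37, adjusted p = 0.0354 from limma) and 1 lower (mml-miR-142-3p_R-1, log2 fold change −3.04, adjusted p = 0.00937), while 3 were higher and 1 lower by unadjusted p under 0.05, with a median of 0.97. These are the arms of the same hairpin, and the 3p entry, named after its value was seen, had 436, 960 and 802 normalized counts after ischemia, against 4355, 10371 and 4122 before. The log2 ratio of miR-191-5p to miR-142-5p was 1.60 ± 0.72 after and 1.99 ± 0.31 before ischemia (n = 3 each, SD; p = 0.7 in the exact permutation test). Platelet markers made up 6.03% to 11.3% after and 10.4% to 18.8% before ischemia, with 0 of 10 tested entries higher and 0 lower in limma (1 and 2 at an unadjusted p under 0.05) and a median of −0.33. The log2 ratio of miR-191-5p to miR-223-3p, a miRNA of platelets and neutrophils, was 1.80 ± 0.092 after and 0.69 ± 0.39 before ischemia (p = 0.1 in the exact permutation test).

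Red blood cell markers made up 14.7% to 35.8% of a library after ischemia and 9.79% to 25.1% before. Of 13 tested entries 0 were higher and 1 lower in limma (4 and 1 at an unadjusted p under 0.05), with a median of 0.54. The log2 fold change was above 0 for 8 of the 13. The lower entry, named after its value was seen, was mml-miR-92a-3p (log2 fold change −1.82, adjusted p = 0.0314 from limma). As a measure of lysed red blood cells, miR-451 over miR-23a-3p gave log2 ratios of 2.19, −0.17 and 1.86 after ischemia in monkeys 1, 2 and 3, against 0.33, 0.11 and 1.90 before. The ratio was lowest after ischemia in monkey 2, the library in which miR-191-5p was highest. In monkeys 1 and 3 after ischemia, with ratios of 2.19 and 1.86, miR-191-5p also lay above every baseline. Of 5 brain markers, 3 were matched to entries, which made up 0.00132% to 0.00173% after and 0.00277% to 0.0103% before ischemia. Of their 3 tested entries, of miR-9-5p and miR-138-5p, 0 were higher or lower in limma (0 and 1 at an unadjusted p under 0.05, median −0.75). The matching of miR-128-3p left out mml-miR-128b-3p, which was more abundant, with mean log2 values of 13.47 after and 13.98 before ischemia. Its log2 fold change was −0.51 (adjusted p = 0.387 from limma). miR-138-5p of this list was at 0 after ischemia in monkey 2. The part of blood cells in the level of miR-191-5p was not tested, and more cells releasing a miRNA and more of it per cell cannot be told apart in plasma.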

How the data were processed

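Total RNA of plasma was made into small RNA libraries with a TruSeq kit and sequenced by the authors, who trimmed adapters with ACGT101-miR, kept 18 to 26 nt, removed other RNA families and assigned the reads to miRNA precursors. The genome build is not given in the sources used here. The deposited table holds signal values, namely read counts that the authors normalized with 1 factor per library. The value of 1 read was recovered as the largest step of which over 80% of the values above 0 are whole multiples within 0.01 reads (84.0% to 86.9% per library). Since the others were fractions, no count test was run. 5 lines of the table were empty.

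Log2(value + 1) was tested with limma 3.58.1 in R 4.3.3, with a variance trend, no covariate and a filter of 10 in at least 3 libraries. Ratios and shares were tested with exact two-sided permutation tests in Python 3.11.15 with NumPy 2.4.6, pandas 2.3.3 and SciPy 1.17.1, strands were paired with RNAduplex 2.7.2, and figures were drawn with Matplotlib 3.10.9. The limma step was tested on simulated data.

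Libraries of the same number were taken as 1 monkey, because the animals were sampled at both times and the deviations from the group means correlated at 0.18, 0.36 and 0.29 between same-numbered libraries and at −0.40 to 0.14 otherwise. All 4 entries are named. For each 5p entry, the 5 known entries most correlated with it are also named, as are up to 3 of each list, here given where a result turns on them. Members and lists were chosen with earlier results of these data known.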

Additional observations from a re-analysis of the deposited data

How the results depend on the processing

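None of the 19 alternatives brought a member past the adjusted threshold. miR-191-5p and miR-425-3p kept their direction in all 19, with log2 fold changes of 0.59 to 1.16 and 0.20 to 0.76. By library totals miR-191-3p turned to −0.31 and miR-425-5p to −0.017, both without and with the replicate block. Library totals with the block, scaling by reference miRNAs and leaving out both libraries of a monkey were chosen after seeing the data. Leaving out 1 library or 1 monkey moved miR-191-3p between −0.090 and 0.21 and miR-425-5p between 0.13 and 0.66. Leaving out 1 library moved the difference of the log2 arm ratio of miR-425 between −0.54 and 0.068. Over all entries, 17 were higher and 29 lower with the replicate block, 46 lower by library totals (81 with the block), and 10 higher without a variance trend. Leaving out libraries or monkeys gave 2 to 24 higher and 1 to 28 lower. The libraries that moved a count by over 1.5 times were those after ischemia of monkey 1 (5 higher and 14 lower without it) and monkey 3 (9 and 18), and those before ischemia of monkey 2 (17 lower) and monkey 3 (8 and 15). The causes were not tested. The replicate block changed no call of a member. Each arm had 1 entry, so summing the entries of an arm gave no other value. With 3 libraries per group the exact permutation tests cannot pass 0.05 and say nothing on stability.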
